A study of Mus musculus with 12 samples.

Results

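The core histone genes, chosen as every gene in the deposited feature list whose symbol begins with Hist1 to Hist4 followed by the codes for H2A, H2B, H3 or H4, numbered 61 of the 31053 genes listed. They comprised 18 H2A, 18 H2B, 12 H3 and 13 H4 genes. At least 1 unique molecular identifier (UMI, the tag that marks a captured transcript) was found for 52 of them in the 12 libraries together, and 24 had at least 20 UMIs and entered the comparisons, namely 7 H2A, 7 H2B, 4 H3 and 6 H4 genes. The rule used gene symbols only, with this UMI minimum set over all libraries.

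The study asked how the way of taking a brain apart alters the transcripts of its microglia, the resident macrophages of the central nervous system. Whole brains came from 12 males of the C57BL/6J strain, aged about 90 days, and live cells positive for CD45 and CD11b were sorted from them, 1 animal per library. There were 4 groups of n = 3: DNC-NONE (Dounce homogenization in the cold, a mechanical method, without inhibitors), DNC-INHIB (the same with inhibitors), ENZ-NONE (digestion with enzymes at a warm step, without inhibitors) and ENZ-INHIB (digestion with inhibitors). The other 3 groups are listed below in the order DNC-NONE, DNC-INHIB, ENZ-INHIB unless named. The inhibitors were actinomycin D and triptolide, which block transcription, and anisomycin, which blocks translation. Each group was spread over the 2 batches given in the labels, with 6 libraries in each batch.

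Core histones form the protein spool around which DNA is wound. The genes counted here are mostly of the replication-dependent kind, which dividing cells use in S phase to supply new chromatin. Their messages usually end at a short stem-loop instead of a poly(A) tail, but some of these genes can also give polyadenylated, longer transcripts, above all in cells that do not divide. The libraries were primed on poly(A) at 3′ ends, so the counts are taken to describe mainly polyadenylated forms and not the whole histone message. The ends of the counted transcripts were not tested. The genes also come as near-identical copies, and by the rule of the counting software reads that fit several copies equally well are left out.

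The stem-loops are shown because they separate the 2 kinds of transcript end. In the GENCODE annotation of GRCm38 the longest transcript of 34 members held a match to the stem-loop, in 5 spellings, of which 3 follow with the 4 loop bases in capitals, the first from 22 members of the H2A, H2B and H3 classes, the second from 7 H4 genes and the third from Hist1h4i and Hist2h4.

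stem-loop of H2A, H2B and H3 genes: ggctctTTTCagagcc

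stem-loop of most H4 genes: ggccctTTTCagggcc

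stem-loop of Hist1h4i and Hist2h4: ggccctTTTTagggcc

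The annotated transcript ran at least 100 bases past the stem-loop in 14 of the 24 members with at least 20 UMIs and in 2 of the other 37. It ended sooner after the stem-loop in 5 and 13, and no match was found in 5 and 22. An AATAAA or ATTAAA signal lay in the last 60 bases of 11 of the 24 and of 3 of the 37. The median length of the longest transcript was 920 bases in the 24 and 461 bases in the 37. This is a property of the annotation, which itself rests on sequenced transcripts, and is given as a description.

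Hist1h2bc, an H2B gene with the most UMIs of any member (ENSMUSG00000018102, chromosome 13, 23684199 to 23692908, plus strand, GRCm38), is an example. Its annotated transcript has 2 exons, 423 and 733 bases long and 7554 bases apart, and no stem-loop match. Hist3h2a, an H2A gene with the next highest count (ENSMUSG00000078851, chromosome 11, 58954685 to 58956830, plus strand), has a single exon that continues for 1643 bases past its stem-loop. Exons of Trim17 overlap it on the same strand, so its count is uncertain. Of the 24, 3 had a spliced longest transcript, namely Hist1h2bc, Hist1h2be and Hist1h2br.

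Because H2A and H2B genes often lie head to head and share the sequence between them, the promoters of 4 genes are shown: Hist1h2ac, Hist1h2bg and Hist1h4i, which were called in at least 1 comparison below, and Hist3h2a, which was not called in any. Each runs from 250 bases before to 50 bases after the start site in RefSeq (GRCm38.p6), on the gene's own strand, and capitals mark the motifs found. The windows are chr13:23683910-23684209 (minus strand) for Hist1h2ac, chr13:23571150-23571449 (plus strand) for Hist1h2bg, chr13:22041313-22041612 (minus strand) for Hist1h4i and chr11:58954435-58954734 (plus strand) for Hist3h2a.

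Hist1h2ac promoter: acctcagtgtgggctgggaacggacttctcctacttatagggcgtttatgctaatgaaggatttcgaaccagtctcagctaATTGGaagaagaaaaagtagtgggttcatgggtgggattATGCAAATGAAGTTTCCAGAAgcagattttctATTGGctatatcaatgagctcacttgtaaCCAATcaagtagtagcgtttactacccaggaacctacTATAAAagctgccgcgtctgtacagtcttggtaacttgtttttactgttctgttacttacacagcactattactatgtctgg

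Hist1h2bg promoter: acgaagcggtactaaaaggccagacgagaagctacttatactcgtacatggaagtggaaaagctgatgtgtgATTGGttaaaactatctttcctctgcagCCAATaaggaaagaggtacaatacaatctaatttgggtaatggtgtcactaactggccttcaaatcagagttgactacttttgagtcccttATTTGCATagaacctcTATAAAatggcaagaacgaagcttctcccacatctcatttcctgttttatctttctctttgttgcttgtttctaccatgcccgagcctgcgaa

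Hist1h4i promoter: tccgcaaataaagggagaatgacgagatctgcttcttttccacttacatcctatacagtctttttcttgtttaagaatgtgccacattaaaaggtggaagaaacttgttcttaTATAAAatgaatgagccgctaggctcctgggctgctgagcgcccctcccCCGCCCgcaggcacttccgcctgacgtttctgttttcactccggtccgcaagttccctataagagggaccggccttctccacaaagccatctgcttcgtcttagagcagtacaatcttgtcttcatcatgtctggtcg

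Hist3h2a promoter: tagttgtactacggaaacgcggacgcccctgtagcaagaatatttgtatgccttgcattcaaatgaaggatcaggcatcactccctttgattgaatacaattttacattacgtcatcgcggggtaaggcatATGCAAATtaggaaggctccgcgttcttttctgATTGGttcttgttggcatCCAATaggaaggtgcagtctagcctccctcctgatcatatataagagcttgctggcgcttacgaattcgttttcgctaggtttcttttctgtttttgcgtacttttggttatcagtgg

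The Hist1h2ac window contains the annotated start of Hist1h2bc, whose own promoter is not in the table, and the annotated starts of these genes are 251 bases apart. Those of Hist1h2ae and Hist1h2bg are 176 bases apart, and those of Hist1h2ap and Hist1h2br 236 bases. In the Hist1h2ac window an octamer begins at position -130 and a heat shock element, the binding sequence of heat shock factor, at -122, directly after it, with positions counted from the start site and -1 the base before it. The heat shock element was searched as GAA, TTC and GAA with 2 free bases between neighbours, on both strands, and found in the windows of 3 of 56 members with a listed promoter (Hist1h2ac and the head-to-head genes Hist1h2ad and Hist1h2bf, whose windows overlap) and of 0.529% of 27025 genes. The CCAAT box (letters CCAAT) was found in 47 of 56 members against 37.9% of all genes. By class it was in 18 of 18 H2A, 16 of 16 H2B, 10 of 10 H3 and 3 of 12 H4 promoters. The octamer, read by POU family factors (letters ATTTGCAT), was found in 7 of 18 H2A and 6 of 16 H2B promoters, in 0 of the H3 and H4 promoters, and in 1.75% of all genes. The TATA box (letters TATAAA) was in 31 members against 14.2% of all genes and the GC box (letters GGGCGG) in 19 members against 35.9%. The AP-1 site, where Fos and Jun bind (letters TGACTCA), was in 0 of 56 members against 5.17% of all genes. Both strands were searched, and windows of head-to-head genes count the same bases more than once. A match is a string of letters and not a shown binding site.

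The 12 libraries held 28426 cells and 33742845 UMIs as deposited, 2118143 to 3654465 UMIs each. After filtering, 18826 cells were kept, with median depths of 1153 to 1572 UMIs per cell in the libraries. At least 3 of 8 microglial markers were found in 97.8% to 99.3% of kept cells. At least 3 border macrophage markers were found in 0.447% to 2.93% and at least 3 monocyte markers in 0.126% to 2.07%, the highest monocyte share in DNC-NONE replicate 1. Cells with at least 3 genes of a cycling list made up 0.119% to 0.821%. Barcodes present in more than 1 library numbered 503 of 27914. DNC-NONE replicate 1 stood apart from its group in several members, described below, and 57.1% of its cells held a UMI of 6 early response and heat shock genes (Fos, Jun, Egr1, Dusp1, Hspa1a, Hspa1b) against 22.6% and 21.9% in the other DNC-NONE libraries.

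Core histone transcripts were a small and uneven part of the libraries. The kept cells held 8613 core histone UMIs, 0.0321% of all UMIs. Hist1h2bc gave 3443 of them and Hist3h2a 2794, together 72.4%. In the deposited libraries the 28 members with 1 to 19 UMIs had a median of 3 and at most 14. No UMI was found for 9 members. Members with a UMI numbered 21 to 38 per library, with the highest number in ENZ-NONE replicate 6.

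All 4 classes were higher in ENZ-NONE than in the inhibitor groups, and H2B by the most UMIs. Levels are given as CPM, the UMIs of a gene or class in every 1000000 UMIs of the kept cells of a library. Core histones together made up 519 ± 24.2 CPM of the ENZ-NONE libraries (SD, n = 3), compared with 270 ± 46.7, 255 ± 27.2 and 241 ± 24.1 CPM in the other groups. Within batch 1 the means were 508 CPM against 273, 253 and 213, and within batch 2 they were 540 CPM against 265, 256 and 255, each from 1 or 2 libraries. In bulk sums like these, fewer cells with the transcript and less transcript per cell cannot be told apart. H2B genes had 298 ± 13.6 CPM in ENZ-NONE against 102 ± 6.35, 111 ± 15.9 and 103 ± 12.4 CPM. H2A genes had 154 ± 10.96 CPM against 128 ± 17.7, 118 ± 6.58 and 116 ± 17.8 CPM. H3 genes had 32.3 ± 1.55 against 15.9 ± 7.51, 15.9 ± 2.02 and 13.8 ± 4.07. H4 genes had 34.5 ± 4.03 against 24.9 ± 18.7, 9.72 ± 4.10 and 7.47 ± 1.03. The ENZ-NONE libraries lay above every library of the other groups in H2A, H2B and H3, while for H4 DNC-NONE replicate 1 (46.4) lay above all of them. Without Hist1h2bc and Hist3h2a the remaining members had 162 ± 19.3 in ENZ-NONE against 88.3 ± 50.5, 54.6 ± 5.09 and 50.7 ± 6.00, and ENZ-NONE overlapped DNC-NONE, whose highest library (145) lay above the lowest of ENZ-NONE (140.0). No test was run on these sums.

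**Figure D1:**
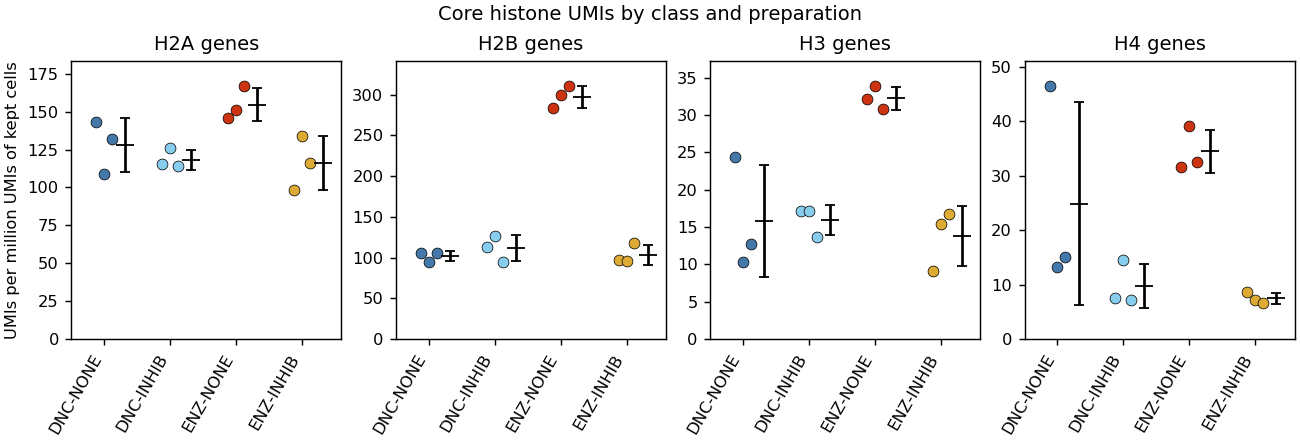
UMIs of H2A, H2B, H3 and H4 genes in CPM (y axis, of the UMIs of kept cells) in each library, by preparation (x axis). Points are libraries in replicate order and the bar beside them is the mean with SD of n = 3. The ENZ-NONE libraries of H2B sit at 283 to 310, above the 94.4 to 126 of the other 9 libraries.

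For single genes, library sums of kept cells were compared with edgeR's quasi-likelihood test over the 11887 genes with at least 20 UMIs. A gene was called with a Benjamini-Hochberg adjusted p under 0.05 and an absolute log2 fold change above 0.58. Adjusted p-values below are from this test. Differences are given as log2 fold changes of the fit. Their standard errors (SE) are the absolute log2 fold change divided by the square root of the F statistic of the test. Of the 24 members, 6 (Hist1h2bb, Hist1h2bg, Hist1h2br, Hist2h2aa2, Hist2h2ac and Hist2h3b) reached 20 UMIs only with the ENZ-NONE libraries counted, so counts over the 24 members are descriptions.

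Against DNC-NONE, 4 of 24 members rose in ENZ-NONE and none fell, where 0.505% of all genes tested were called. Against DNC-INHIB 6 rose and none fell (0.732% of all genes), and against ENZ-INHIB 8 rose and none fell (0.395%). The median log2 fold change of the 24 members was 0.89, 1.72 and 1.72 in these comparisons, beside 0.01, 0.00 and 0.00 over all genes. The 3 comparisons share the ENZ-NONE libraries. Without DNC-NONE replicate 2 or 3 the first count was 3, without any 1 DNC-INHIB library or ENZ-NONE replicate 5 the second was 5, and the third was 3 without ENZ-NONE replicate 6 or ENZ-INHIB replicate 1 or 3, 4 without ENZ-INHIB replicate 2, and 6 or 7 without ENZ-NONE replicate 5 or 4. Hist1h2bc, Hist1h2bg, Hist1h4i and Hist2h2aa1 were called in each of them. The groups did not overlap, with ENZ-NONE higher, in 13, 16 and 12 of the 24 members, compared with 4.24%, 4.81% and 4.33% of all genes.

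Hist1h2bc, the H2B gene described above, carried most of the H2B difference. Its level was 242, 251 and 270 CPM in ENZ-NONE replicates 4, 5 and 6. It was 87.6, 81.1 and 83.8 CPM in DNC-NONE replicates 1, 2 and 3, and 92.8, 108 and 76.1 CPM in DNC-INHIB replicates 4, 5 and 6. In ENZ-INHIB replicates 1, 2 and 3 it was 77.0, 79.2 and 101 CPM. Every ENZ-NONE library was therefore more than 2 times as high as any other library, and the other 3 groups overlapped. The log2 fold change was 1.64 (SE 0.14, adjusted p = 4.9e-07) against DNC-NONE, 1.51 (SE 0.13, adjusted p = 7.4e-07) against DNC-INHIB and 1.59 (SE 0.13, adjusted p = 4.2e-07) against ENZ-INHIB. Within batch 1 the mean was 246 CPM in ENZ-NONE against 84.4, 92.8 and 77.0 CPM elsewhere, and within batch 2 it was 270 CPM against 83.8, 92.2 and 90.2 CPM.

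Hist3h2a, the H2A gene with almost as many UMIs, was not called in any comparison. Its level ran from 86.4 to 116 CPM over the 12 libraries, and the group means were 103 ± 7.09 CPM in ENZ-NONE and 97.9 ± 12.4, 108 ± 6.39 and 104 ± 13.9 CPM in the other groups (SD, n = 3). The groups overlapped. The plot of single genes sets it beside Hist1h2bc.

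**Figure D2:**
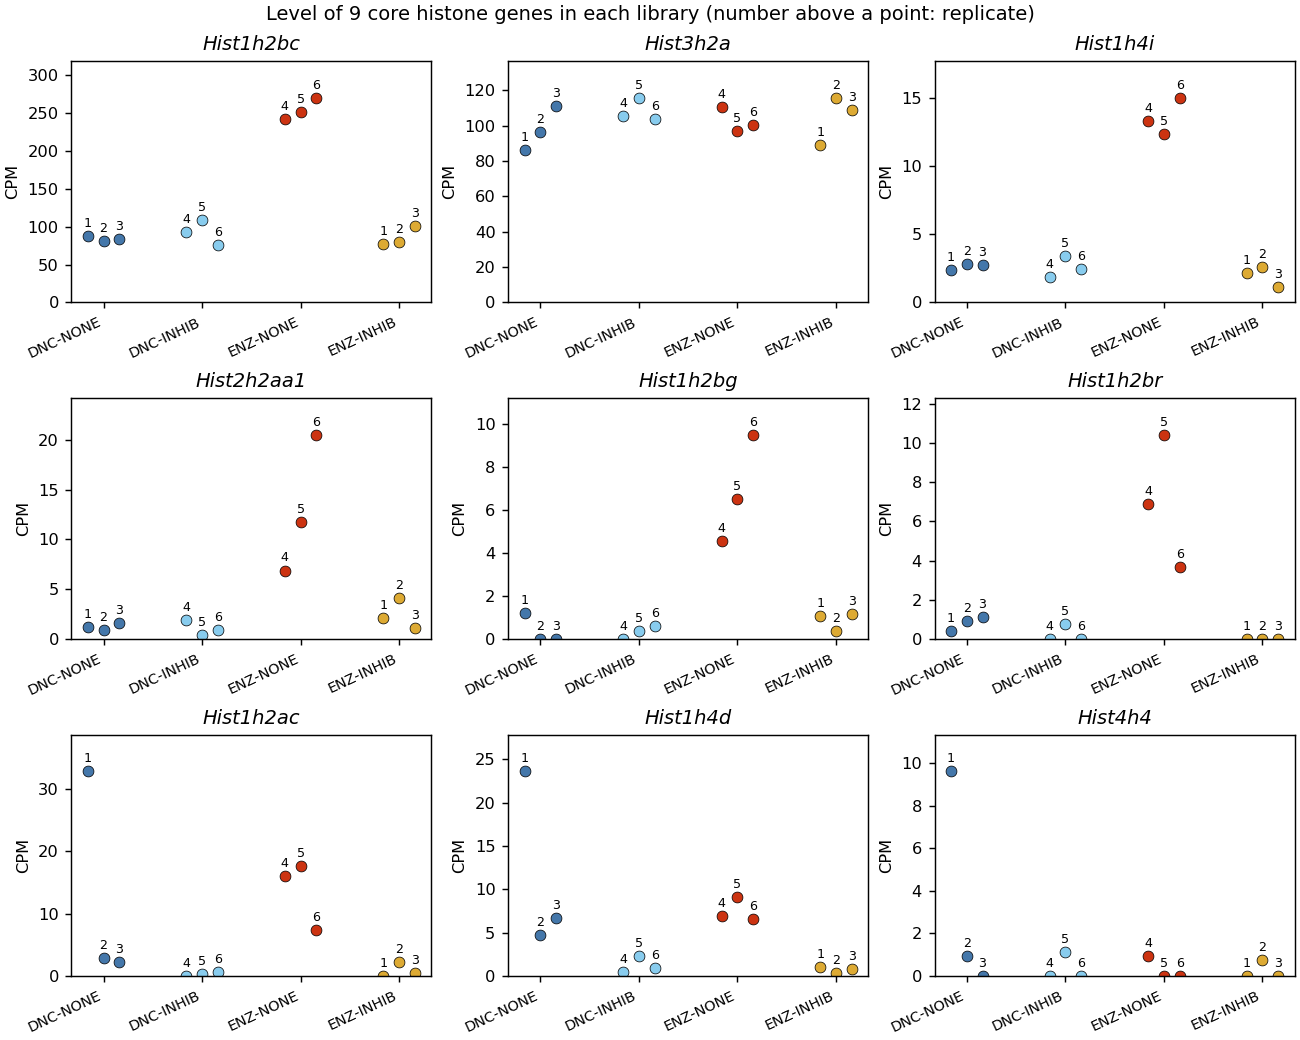
Level in CPM (y axis, each panel on its own scale) of 9 core histone genes in each of the 12 libraries, by preparation (x axis), with the replicate number above each point. Hist1h2bc stands at 242 to 270 in ENZ-NONE, Hist3h2a lies between 86.4 and 116 everywhere, and Hist1h2ac, Hist1h4d and Hist4h4 have their highest value in DNC-NONE replicate 1.

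Of the other H2B genes, Hist1h2bg and Hist1h2br were low and had their highest levels in ENZ-NONE. Both entered the test only through the ENZ-NONE libraries, with 16 and 7 deposited UMIs outside them, so their ratios and p-values are given as descriptions. With no low-count filter both were called in all 3 comparisons (adjusted p 3.6e-07 to 0.00012 for Hist1h2bg and 1.9e-08 to 0.0012 for Hist1h2br). That fit called more genes in every comparison, such as 86 against 0 in DNC-NONE against DNC-INHIB, so these values are descriptions too. Hist1h2bg (ENSMUSG00000058385, chromosome 13, 23571396 to 23572013, plus strand) had 10, 10 and 26 UMIs (4.59, 6.51 and 9.52 CPM) in the ENZ-NONE libraries and 3, 3 and 6 UMIs in all in the other groups. No other library exceeded 1.20 CPM. From the counts alone its level was 12.8 times that of DNC-NONE (95% exact interval 4.10 to 64.1), and adjusted p was 0.018, 0.0025 and 0.029 against the other groups. The call against DNC-NONE was lost without DNC-NONE replicate 2 or 3 or ENZ-NONE replicate 6 (adjusted p 0.072 to 0.10), and that against ENZ-INHIB without ENZ-NONE replicate 6 or any ENZ-INHIB library (0.10 to 0.28). These intervals cover counting error only.

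Hist1h2br (ENSMUSG00000069303, chromosome 13, 21833743 to 21837530, plus strand) had 15, 16 and 10 UMIs (6.89, 10.4 and 3.66 CPM) in the ENZ-NONE libraries and 4, 2 and 0 in all in the other groups. Taking 3 counts in place of 0 for the ENZ-INHIB group, its pooled level in ENZ-NONE was 15.0-fold higher (adjusted p = 0.0026). The counting error of the 41 ENZ-NONE UMIs and the spread between libraries do not enter this ratio. Against DNC-INHIB the ratio of counts was 25.3 (95% exact interval 6.58 to 216, adjusted p = 0.0048). Against DNC-NONE the log2 fold change of 3.10 (SE 0.71) was not called, with adjusted p = 0.067, although no library overlapped. It passed with all deposited barcodes (3.88, adjusted p = 0.018) and when ENZ-NONE replicate 6 was left out (3.43, adjusted p = 0.018). The other H2B genes tested were not called. Hist1h2be, second in UMIs in its class, had 13.8, 15.6 and 10.6 CPM in the ENZ-NONE libraries. It had 6.4, 1.89 and 9.44 CPM in DNC-NONE, 9.51, 7.98 and 6.19 CPM in DNC-INHIB and 5.93, 9.05 and 5.85 CPM in ENZ-INHIB. The ENZ-NONE libraries were the highest, without overlap, and its exons overlap those of Hist1h1e and Gm11398 on the same strand. Hist1h2bb, Hist2h2be and Hist3h2ba completed the class.

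Among the H2A genes Hist2h2aa1 (ENSMUSG00000064220, chromosome 3, 96245497 to 96246082, plus strand) rose in all 3 comparisons. It had 6.89, 11.7 and 20.5 CPM in ENZ-NONE replicates 4, 5 and 6, and 0.38 to 4.15 CPM in the other 9 libraries, so the groups did not overlap. The log2 fold change was 3.36 (SE 0.57, adjusted p = 0.0048) against DNC-NONE, 3.71 (SE 0.54, adjusted p = 0.00058) against DNC-INHIB and 2.41 (SE 0.47, adjusted p = 0.018) against ENZ-INHIB. The last call was lost without ENZ-NONE replicate 6 (log2 fold change 1.82, adjusted p = 0.29) and without ENZ-INHIB replicate 1 or 3 (adjusted p = 0.10 and 0.18). The call against DNC-NONE was lost when DNC-NONE replicate 1 and ENZ-NONE replicate 6 were both left out (adjusted p = 0.078), a setting chosen after seeing the data. No 98-base stretch (the read length) starting in the last 300 positions of its transcript was unique to it among the listed genes, so its count and that of its copy Hist2h2aa2 are uncertain, and an exon of Gm20634 overlaps it on the same strand. No such stretch was unique to Hist1h2ap either. Yet Hist1h2ap had 326 deposited UMIs, and Hist2h2aa2, without a unique stretch anywhere in its transcript, had 28. How these UMIs were assigned was not tested.

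Hist1h2ae had 9, 5 and 16 UMIs in the ENZ-NONE libraries and 10, 5 and 1 in all in the other groups. It was called against ENZ-INHIB (ratio of counts 32.9, 95% exact interval 5.48 to 1344, adjusted p = 0.027), a call that was lost without ENZ-NONE replicate 6 or any ENZ-INHIB library (adjusted p 0.088 to 0.23). Hist1h2ap, second in UMIs among the H2A genes, was not called. It had 5.51, 15.0 and 28.9 CPM in the ENZ-NONE libraries and 15.2, 3.77 and 14.4 CPM in DNC-NONE. It had 2.85, 6.84 and 7.73 CPM in DNC-INHIB and 5.39, 9.80 and 4.29 CPM in ENZ-INHIB, and the groups overlapped. Hist2h2aa2 and Hist2h2ac were not called either.

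Hist1h2ac (ENSMUSG00000069270, chromosome 13, 23681467 to 23683948, minus strand), the head-to-head neighbour of Hist1h2bc, had another pattern. It reached 16.1, 17.6 and 7.33 CPM in ENZ-NONE replicates 4, 5 and 6. DNC-NONE replicate 1 was higher still at 32.8 CPM, while DNC-NONE replicates 2 and 3 had 2.83 and 2.22 CPM. It had 0, 0.38 and 0.62 CPM in DNC-INHIB replicates 4, 5 and 6 and 0, 2.26 and 0.39 CPM in ENZ-INHIB replicates 1, 2 and 3. The rise against DNC-INHIB was called, at 33.8 times by counts (82 against 3 UMIs, 95% exact interval 11.2 to 167, adjusted p = 0.026). It was lost without any 1 DNC-INHIB library or without ENZ-NONE replicate 4 or 5 (adjusted p 0.069 to 0.13). The difference from DNC-NONE was -0.13 on the log2 scale (SE 0.59, adjusted p = 0.99) and became 2.44 (adjusted p = 0.11) without DNC-NONE replicate 1. Against ENZ-INHIB the difference of 3.69 (SE 0.92) was not called either, with adjusted p = 0.13. Without DNC-NONE replicate 1 and ENZ-NONE replicate 6 together both were called. The values were 2.78 (adjusted p = 0.011) against DNC-NONE and 4.02 (adjusted p = 2.9e-05) against ENZ-INHIB. That setting was chosen after seeing the data. It drops this gene's highest DNC-NONE and lowest ENZ-NONE library, which raises the difference, so these p-values are descriptions. With no low-count filter the difference from ENZ-INHIB was called as well (adjusted p = 7.6e-14). That fit also called this gene in DNC-NONE against DNC-INHIB (adjusted p = 2.4e-20). Yet DNC-NONE replicate 1 held 82 of the 89 DNC-NONE UMIs, so these values are descriptions. An exon of Gm24991 overlaps Hist1h2ac on the same strand and one of Gm44350 on the other, so its count is uncertain.

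Of the H4 genes, Hist1h4i (ENSMUSG00000060639, chromosome 13, 22040636 to 22041362, minus strand), which has the TTTT loop and the third promoter above, rose in all 3 comparisons. It had 13.3, 12.4 and 15.0 CPM in the ENZ-NONE libraries and 1.17 to 3.42 CPM in the other 9, without overlap. The log2 fold change was 2.42 (SE 0.35, adjusted p = 0.00082) against DNC-NONE, 2.40 (SE 0.32, adjusted p = 0.0002) against DNC-INHIB and 2.79 (SE 0.34, adjusted p = 8.5e-05) against ENZ-INHIB. With library sums thinned to the smallest, the first and last were no longer called (adjusted p = 0.075 and 0.053). Hist1h4c had 3.67, 5.86 and 5.86 CPM in the ENZ-NONE libraries, 1.20, 1.89 and 1.67 CPM in DNC-NONE, 0.95, 1.52 and 0.62 CPM in DNC-INHIB and 1.08, 0 and 1.17 CPM in ENZ-INHIB. It lay highest in ENZ-NONE without overlap. The rise over ENZ-INHIB was a call (log2 fold change 2.79, SE 0.61, adjusted p = 0.048) that was lost without any 1 of these libraries except ENZ-NONE replicate 4 (adjusted p 0.11 to 0.31) and with batch as a covariate (0.052).

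Hist1h4d (ENSMUSG00000061482, chromosome 13, 23581598 to 23582735, plus strand) was lowest in the groups with inhibitors. It had 23.6, 4.72 and 6.66 CPM in DNC-NONE replicates 1, 2 and 3 and 6.89, 9.12 and 6.59 CPM in the ENZ-NONE libraries. It had 0.48, 2.28 and 0.93 CPM in DNC-INHIB and 1.08, 0.38 and 0.78 CPM in ENZ-INHIB. All 6 libraries without inhibitors lay above all 6 with them. The rise over ENZ-INHIB was called in ENZ-NONE (log2 fold change 3.31, SE 0.72, adjusted p = 0.047), and the level in ENZ-INHIB was lower than in DNC-NONE (log2 fold change -4.08, SE 0.66, adjusted p = 0.017). The first call was lost without any 1 of its 6 libraries (adjusted p 0.080 to 0.36) and with batch as a covariate (0.065). The second was lost without DNC-NONE replicate 1 or any ENZ-INHIB library (0.060 to 0.15). Against DNC-INHIB neither DNC-NONE (log2 fold change 3.31, SE 0.58, adjusted p = 0.19) nor ENZ-NONE (2.54, SE 0.62, adjusted p = 0.067) was called. The latter was called with DESeq2 (adjusted p = 0.030), with no low-count filter (1.3e-05) and with only the 6 libraries of the pair (0.016, or 0.0074 with a replicate block). It was also called without DNC-NONE replicate 1 and ENZ-NONE replicate 6 together (0.0093), a setting chosen after seeing the data. The other 13 of 18 alternatives left it uncalled (adjusted p up to 0.49). DNC-NONE was called against DNC-INHIB with DESeq2 (0.020), with no low-count filter (1.7e-11) and without DNC-NONE replicate 2 or 3 (0.041 and 0.031). The other 12 of 16 alternatives left this difference uncalled (adjusted p up to 0.99). They include the one without DNC-NONE replicate 1, which held 59 of the 76 UMIs of Hist1h4d in DNC-NONE. Hist1h4h, Hist2h4 and Hist4h4 were not called.

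No H3 gene was called in any comparison. Hist2h3c1 had 18.4, 21.5 and 16.9 CPM in the ENZ-NONE libraries. It had 11.2, 6.61 and 7.77 CPM in DNC-NONE, 10.9, 12.9 and 8.35 CPM in DNC-INHIB and 5.93, 9.05 and 11.3 CPM in ENZ-INHIB. Its ENZ-NONE libraries lay above the other 9, with log2 fold changes of 0.85 (SE 0.24) against DNC-INHIB and 1.08 (SE 0.25) against ENZ-INHIB, and adjusted p = 0.080, 0.14 and 0.078 in the 3 comparisons. An exon of Gm20634 overlaps it on the same strand, so its count is uncertain. Hist2h3c2 had 6.74 ± 2.46 CPM in ENZ-NONE and 3.12 ± 0.259, 4.18 ± 1.35 and 3.64 ± 0.569 CPM in the other groups. Hist1h3d had 1.84, 6.51 and 4.40 CPM in ENZ-NONE replicates 4, 5 and 6 and 8.40 CPM in DNC-NONE replicate 1, and 0 to 1.88 CPM in the other libraries. Hist2h3b was at most 2.30 CPM in any library.

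**Figure D3:**
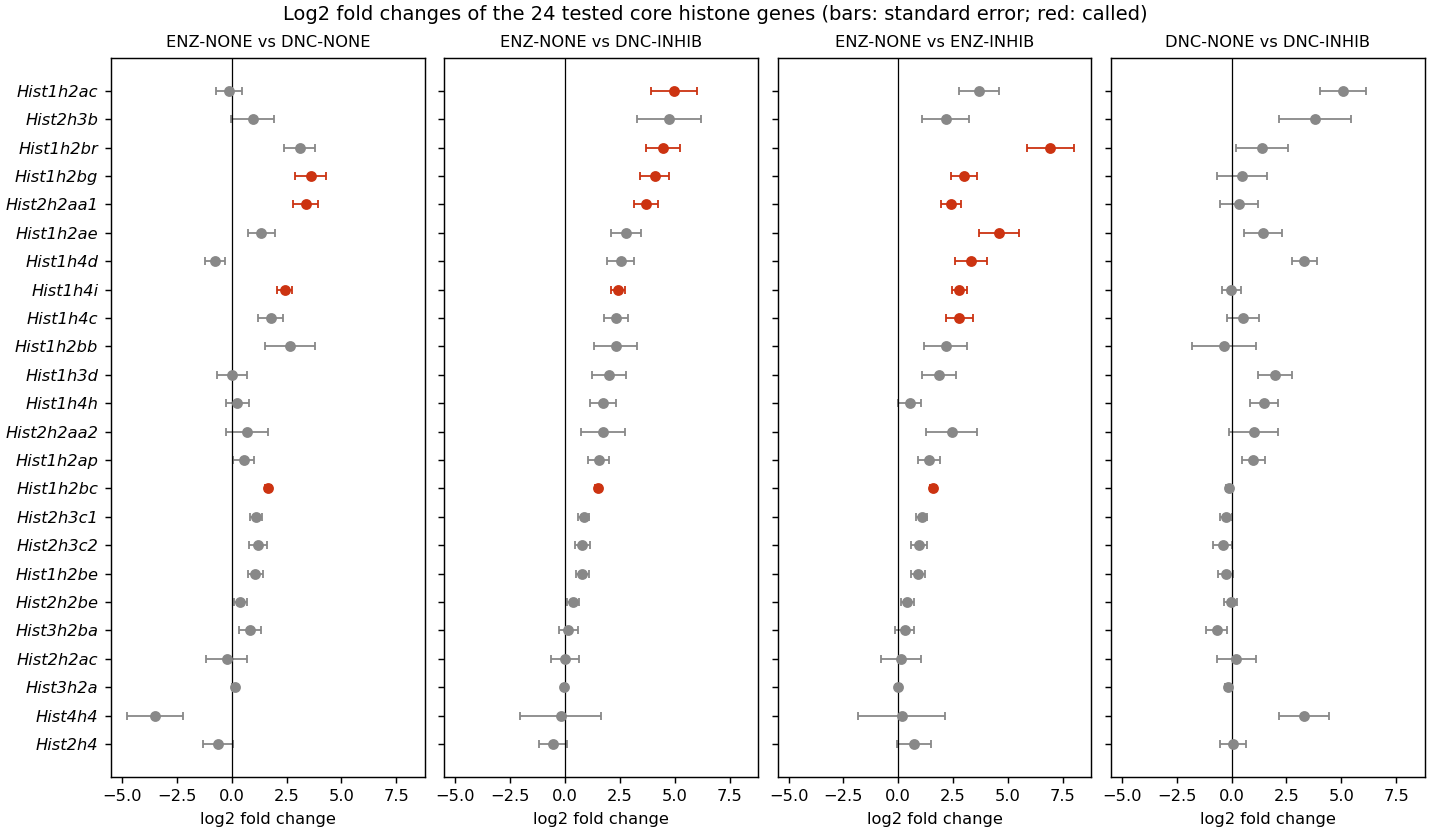
Log2 fold changes (x axis) of the 24 tested core histone genes (rows, ordered by ENZ-NONE against DNC-INHIB) in 4 comparisons, with standard errors. Red points were called. 4, 6, 8 and 0 genes are red from left to right, all of them above 0.

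The remaining comparisons asked whether the inhibitors or the method mattered apart from warm digestion without inhibitors. DNC-NONE against DNC-INHIB called 0 members in edgeR and 0% of all genes. At an unadjusted p under 0.05 there were 6 members and 577 genes, and DESeq2 called 1 gene, Hist1h4d. In this comparison 2 members lay higher without overlap and 1 lower, and 5.06% and 5.01% of all genes did. ENZ-INHIB against DNC-INHIB called 0 members, where 0.135% of all genes were called, with 0 members and 955 genes at an unadjusted p under 0.05 and 0 members in DESeq2. ENZ-INHIB against DNC-NONE called 1 member, Hist1h4d as given above, and 0.0841% of all genes. All 19 calls over these pairs were between groups that did not overlap, so their sign in each batch was bound to be the same.

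The effect of the inhibitors differed between the methods for Hist1h2bc. Its level without inhibitors was higher than with them by a log2 value of 1.59 after digestion and by -0.14 after Dounce, and the difference between these was 1.73 (SE 0.19, adjusted p = 6.0e-05). It was the only member called in this contrast, in which 0.143% of all genes were called. Hist1h4i had a difference of 2.81 (SE 0.57) with adjusted p = 0.062.

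DNC-NONE replicate 1 held the highest value of all 12 libraries for 5 of the 24 members, Hist1h2ac, Hist1h3d, Hist1h4d, Hist2h4 and Hist4h4. Hist4h4, an H4 gene on chromosome 6, had 9.60 CPM there, 0.94 and 0 in DNC-NONE replicates 2 and 3, and at most 1.14 CPM in the other groups. Hist1h3d had 8.40 CPM there and 0.94 and 1.11 CPM in replicates 2 and 3. Hist1h2bc and Hist1h4i were at the level of their group in this library, at 87.6 and 2.40 CPM. The 82 UMIs of Hist1h2ac came from 67 cells and the 59 of Hist1h4d from 54 cells. Highest values fell in ENZ-NONE for 17 of the 24 members. Of the 24, 6 reached the UMI minimum only with the ENZ-NONE libraries counted, which favours a highest value there. No like count of highest values was made over all genes, so both counts are descriptions.

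Seen by cell, core histone UMIs were spread over many cells. After thinning each cell to 1000 UMIs, 33.1%, 35.1% and 37.0% of cells in ENZ-NONE replicates 4, 5 and 6 held at least 1, against 17.5% to 25.3% in the other 9 libraries. Unthinned, the shares were 43.9% ± 4.12 in ENZ-NONE and 26.8% ± 4.72, 28.2% ± 1.82 and 29.3% ± 4.86 in the other groups (SD, n = 3). At least 1 Hist1h2bc UMI was found in 22.0% to 27.1% of ENZ-NONE cells and in 9.26% to 14.2% of cells elsewhere, while Hist3h2a was found in 10.3% to 16.4% of cells over the 12 libraries. Free RNA in the droplets was not measured, as the sort offers no cells that lack histone transcripts for certain. Median depth was 1298 to 1484.5 UMIs per cell in the ENZ-NONE libraries and 1153 to 1572 over all. Within cells with at least 3 microglial markers and no cycling, macrophage or monocyte call, core histones had 522 ± 24.4 CPM in ENZ-NONE and 269 ± 51.6, 255 ± 29.5 and 242 ± 22.4 CPM in the other groups.

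Cycling cells added little. The 75 cycling cells held 65 of the 8613 core histone UMIs (0.755%) and 0.646% of all UMIs. Of those 65, 26 were of Hist1h2ap, 9.35% of that gene's UMIs, while 4 of the 3443 Hist1h2bc UMIs were in cycling cells. Without the cycling cells the member counts of all 7 contrasts stayed at 4, 6, 8, 0, 0, 1 and 1. Over all 11887 genes that setting called 58, 89, 50, 0, 18, 11 and 17 in the same order.

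Within ENZ-NONE, Hist1h2bc was higher in the cells with early response or heat shock transcripts, a split chosen after the data were seen and not tested. In this group 69.1% to 85.8% of cells held at least 1 UMI of Fos, Jun, Egr1, Dusp1, Hspa1a or Hspa1b. Those cells had 294, 308 and 290 CPM of Hist1h2bc in replicates 4, 5 and 6, and the cells without such a UMI had 113, 114 and 137. The cells without were thus at 121 ± 13.3 CPM, beside 77.2 ± 3.59, 92.1 ± 19.1 and 86.8 ± 12.8 CPM for the like cells of the other groups. The cells with such a UMI were at 297 ± 9.47 CPM in ENZ-NONE, beside 102 ± 8.72, 92.7 ± 14.9 and 83.0 ± 15.7 CPM in the other groups. In DNC-NONE they were higher than the cells without in each library, at 92.3 against 81.2, 103 against 74.3 and 109 against 76.2 CPM in replicates 1, 2 and 3. Hist3h2a had 99.8 ± 4.83 in the ENZ-NONE cells with such a UMI and 115 ± 15.3 in those without. Median depth was 1320.5 to 1499 UMIs in the ENZ-NONE cells with such a UMI and 1254 to 1388 in those without, and the part of depth was not tested. Cells with such a UMI were 70.3%, 69.1% and 85.8% of the cells in ENZ-NONE replicates 4, 5 and 6. They held 89.7%, 89.5% and 97.6% of the Hist1h4i UMIs and all of those of Hist1h2br. For Hist1h4c the shares were 75.0%, 100% and 87.5%. For Hist1h4d they were 66.7%, 78.6% and 88.9%, in replicate 4 below the share of cells.

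**Figure D4:**
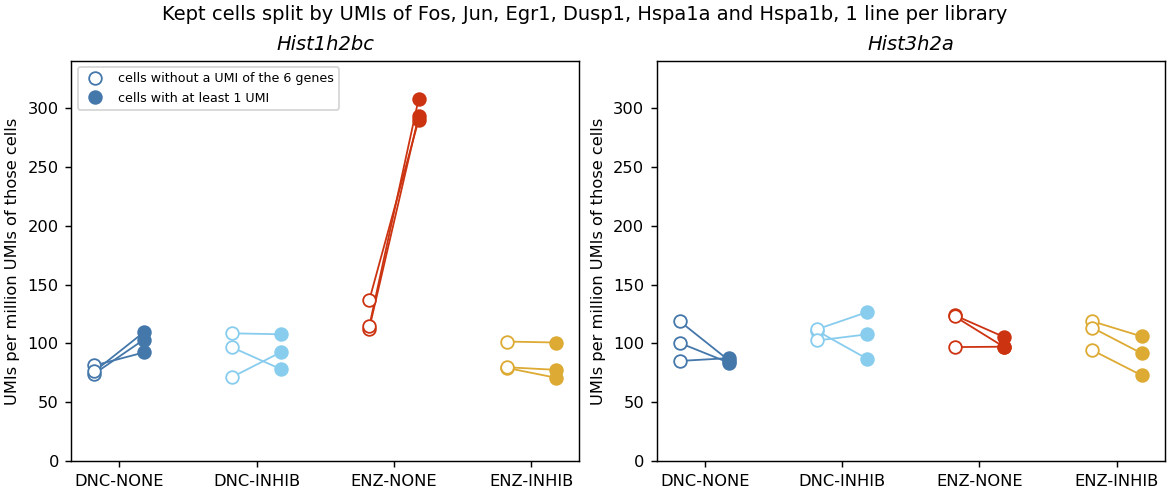
Hist1h2bc (left) and Hist3h2a (right) CPM within those cells (y axis) in kept cells without (open circles) and with (filled circles) a UMI of 6 early response and heat shock genes, by preparation (x axis), 1 line per library. Hist1h2bc goes from 113 to 137 up to 290 to 308 in ENZ-NONE, and Hist3h2a has no such gap.

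Genes around the core histones were read from 4 lists. None of the 9 replication-independent core histone variants (such as H2afz and H3f3b, which are made outside S phase and carry ordinary poly(A) tails) was called in any contrast, and their median log2 fold change was -0.05, 0.08 and 0.00 for ENZ-NONE against the other groups. H3f3b, of the H3.3 kind, had log2 fold changes of 0.41, 0.50 and 0.43, with adjusted p = 0.036, 0.0047 and 0.034 but under the fold threshold. None of 13 tested genes of histone mRNA 3′ end formation and decay was called in any contrast, with medians of 0.05, 0.02 and 0.00. They include Slbp, which binds the stem-loop. None of 13 tested histone chaperones, which escort histones to DNA, was called in any contrast, with medians of -0.05, -0.10 and -0.06. Of 4 tested linker histones, which bind DNA between spools, 2, 3 and 3 rose in ENZ-NONE against the other groups, none fell, and 1, Hist1h1c, was called in the contrast of inhibitor effects. Hist1h1c had a log2 fold change of 2.22, 2.08 and 2.52 in these 3 comparisons, and Hist1h1d was called in all 3 and Hist1h1e in the last 2.

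The 5 genes whose log2 CPM (prior count 2) followed Hist1h2bc most closely over the 12 libraries, among 11886 others, were Hspa1b (Pearson's r 0.98), Hist1h1c (0.97), Hspa1a (0.97), Hsp90aa1 (0.96) and Jund (0.95). Hspa1a, Hspa1b and Hsp90aa1 code for heat shock chaperones and Jund for a subunit of AP-1. Hspa1a had 780 ± 346 CPM in ENZ-NONE and 3.27 ± 3.42, 11.9 ± 6.33 and 5.67 ± 2.21 CPM in the other groups. The nearest core histone genes were Hist1h4i (0.94) and Hist1h2bg (0.91), and Hist3h2a had 0.20. The libraries fall into ENZ-NONE and the rest, so these values describe that split and carry no test.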

How the data were processed

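Sorted brain myeloid cells of 12 mice were profiled with a droplet 3′ kit. The authors deposited raw UMI counts per gene and called cell, made, per the submitters' processing notes, with Cell Ranger 3.0.0 against mm10 (GRCm38) and its filtered Ensembl annotation, without normalization. That software counts reads that map to 1 gene, which lowers counts of near-identical histone copies, and its use of strand is not given in the sources used here. Cells were kept with at least 500 genes, 1000 UMIs and at most 10% mitochondrial UMIs. A marker rule removed 4 doublets (0.0212%), so few that most doublets are taken to remain. UMIs were summed per library (1059783 to 3233159) and tested with edgeR 4.0.16 (TMM, quasi-likelihood, all 12 libraries), with DESeq2 1.42.0 as an alternative, and the fitting code was tested on simulated data.

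The members and lists were chosen with earlier results of these data known. Named with values were genes called in at least 1 pair of groups and the 2 with most UMIs per class, and those most like Hist1h2bc. Intervals are 95% exact binomial intervals of pooled counts, and intervals and floors cover counting error only. Gene positions and transcripts came from GENCODE M21 and promoters from RefSeq. Promoters of 5 members were not listed. Alternatives tried were other normalization, filters, cells, depth, batch and libraries.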

Additional observations from a re-analysis of the deposited data

Results flagged for a closer look

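The effect of the inhibitors on Hist1h2bc differed between the preparation methods. The log2 difference between the inhibitor effect after digestion and that after Dounce was 1.73 (SE 0.19, edgeR adjusted p = 6.0e-05), with the level without inhibitors higher in 3 of 3 libraries after digestion and overlapping after Dounce. It stayed between 1.59 and 1.95 over 22 alternatives, each of which called it. Groups of 3 libraries were too small for a test of single outlying samples.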

How the results depend on the processing

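Hist1h2bc kept its direction and call in each of the 3 ENZ-NONE comparisons under each alternative run, from 1.39 to 1.86 on the log2 scale. Of 471 repeats of 28 named fold changes, 388 kept direction and call, 58 lost a call, 17 gained one and 8 turned sign. Without the low-count filter 50 members were tested. Of these, 7, 11 and 11 were called in ENZ-NONE against the other groups (order as above), and 6 of the 7 against DNC-NONE were higher. There were 3 called in DNC-NONE against DNC-INHIB, 3 in ENZ-INHIB against DNC-NONE and 2 in the contrast of inhibitor effects. Over all genes that alternative called 206, 212 and 141 for ENZ-NONE (60, 87 and 47 with the filter), 86 in DNC-NONE against DNC-INHIB (0), 97 in ENZ-INHIB against DNC-INHIB (16), 213 in ENZ-INHIB against DNC-NONE (10) and 72 in the contrast (17). With library sums thinned to the smallest, 2 members were called against DNC-NONE, 4 against DNC-INHIB and 2 against ENZ-INHIB, and 0 in ENZ-INHIB against DNC-NONE. Over all genes thinning called 60, 63, 40 and 12 in the same order. Thinning also ended the calls of Hist1h2br and Hist1h2ac against DNC-INHIB. DESeq2 ended those of Hist1h2bg against DNC-NONE and of Hist1h2bg, Hist1h2ae and Hist1h4c against ENZ-INHIB. DESeq2 called 5 members against ENZ-INHIB (40 of all genes) and 1 in DNC-NONE against DNC-INHIB (1 of all genes). The defaults of filterByExpr tested only 13 members and called 4 of them against ENZ-INHIB (38 of 9882 genes). Leaving out single libraries gave 3 to 4 members against DNC-NONE, 5 to 6 against DNC-INHIB, 3 to 7 against ENZ-INHIB, 0 to 2 in DNC-NONE against DNC-INHIB (1 or 2 without DNC-NONE replicate 2 or 3), and 0 to 2 in ENZ-INHIB against DNC-NONE (0 without DNC-NONE replicate 1 or any ENZ-INHIB library, 2 without DNC-NONE replicate 3). Over all genes, leaving out single libraries gave 40 to 98, 56 to 93, 30 to 60, 0 to 2 and 0 to 20 calls in the same order. Without DNC-NONE replicate 1 and ENZ-NONE replicate 6 together, an alternative added after seeing the data, 5 members were called against ENZ-INHIB, 5 against DNC-NONE and 7 against DNC-INHIB. Over all genes it called 41 against ENZ-INHIB, 103 against DNC-NONE and 84 against DNC-INHIB. It called 18 in DNC-NONE against DNC-INHIB, 51 in ENZ-INHIB against DNC-INHIB, 60 in ENZ-INHIB against DNC-NONE and 33 in the contrast.

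The fold change of Hist1h2ac against DNC-NONE turned from -0.13 to 0.12 with DESeq2, 0.0012 with all deposited barcodes, 0.013 with thinned sums, 0.17 without ENZ-NONE replicate 6, 2.44 without DNC-NONE replicate 1 and 2.78 without both, and ran from -0.63 to 2.44 when single libraries were left out. That of Hist1h4d, -0.77, turned to 0.37 without DNC-NONE replicate 1 and 0.45 without both, and ran from -1.08 to 0.37. The cause was not tested.

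Without thinning, the share of cells with a core histone UMI was 43.9% in ENZ-NONE and 26.8%, 28.2% and 29.3% in the other groups, from 35.0% and 22.2%, 22.4% and 20.2%.

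Each library came from a different animal, so equal replicate numbers in 2 groups do not mark a shared animal. Whether they mark libraries handled together was not settled. Deviations of same-numbered libraries correlated at 0.28, -0.11 and 0.24 for numbers 4, 5 and 6 of ENZ-NONE and DNC-INHIB. The best other-numbered library gave 0.14, 0.11 and -0.07. For numbers 1, 2 and 3 of ENZ-INHIB and DNC-NONE the values were -0.43, -0.32 and -0.23, beside 0.35, 0.39 and 0.27. Libraries numbered 4 share a batch, as do those numbered 6, so batch and shared handling cannot be told apart there. With the replicate block on the 6 libraries of the pair, 9 and 2 members were called, against 8 and 1 without it. Over all genes the block called 127 and 106, against 92 and 32 without it. No animal is shared within a block, so these counts are descriptions.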
